A study of Saccharomyces cerevisiae with 14 samples.

Results

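Oligosaccharyltransferase is the membrane enzyme complex of the endoplasmic reticulum (ER) that moves a preassembled oligosaccharide from its lipid carrier, dolichol pyrophosphate, onto asparagine residues of proteins entering the ER. The 9 genes that encode its subunits in budding yeast, STT3, OST1, WBP1, SWP1, OST2, OST4, OST5, OST3 and OST6, were followed here in strains mutant for ARV1, which encodes an ER membrane protein linked to lipid transport. They were chosen by name as subunits of the complex. All 9 matched a probe set on the S98 array format and 8 of them also on the Ye6100 format, out of 5315 genes named on both. These 8 passed the filter on dim probe sets and were among the 4287 genes tested, and each had 1 probe set per format.

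Stt3 is the catalytic subunit, and Ost1, Wbp1, Swp1 and Ost2 are, with it, the subunits that yeast cannot grow without. Ost4 and Ost5 are very small membrane proteins, and Ost3 and Ost6 are related, thioredoxin-like subunits of which a single complex holds one or the other. Yeast is known to answer a build-up of unfolded proteins in the ER with the unfolded protein response, which raises transcripts of many secretory pathway genes, enzymes of glycosylation among them. The study's title names that response, so whether the complex's transcripts shifted with it is the question the comparison addresses.

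RNA came from 5 samples of Saccharomyces cerevisiae of background w303 and mating type MATa, all in mid-logarithmic growth in YEPD, a rich glucose medium. On the Ye6100 format, which spreads each sample over 4 chips, were a control of strain SCY328 (control 1/2), an ARV1 mutant of strain SCY820 (mutant 1) and an ARV1 mutant of strain SCY840 (mutant 2). On the single-chip S98 format were a control of strain SCY2004 (control 3) and another sample of SCY840 (mutant 3). Each mutant was read against the control of its own format, so mutants 1 and 2 share 1 control. Each strain is 1 isolate, the labels give no further detail of the ARV1 mutation, and nothing says whether samples came from separate cultures. No strain has 2 samples on 1 format. The scatter behind the p-values is thus the difference between mutants 1 and 2, and the difference of the mutant effect between the formats. Isolate, array format, control strain and technical differences are mixed in it and cannot be told apart.

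Values are MAS5 signals, the brightness of a probe set in arbitrary units, and a log2 ratio of 1 is a 2-fold difference. The targeted gene was dim in every mutant, with ARV1 signals of 33.4, 1.0 and 2.2 in control 1/2, mutant 1 and mutant 2, and scaled signals of 51.8 and 6.79 in control 3 and mutant 3. For the labelled mating type, 7 of 7 a-cell marker genes summed to between 3510 and 6415 per sample, with most of each sum from MFA1 and MFA2. The 4 alpha-cell markers, none of them at 0, summed to between 36.8 and 172. On Ye6100 each a-cell marker was brighter than each alpha-cell marker of the same sample. On S98 the a-cell marker ASG7 overlapped with alpha-cell markers in both samples. In control 3 ASG7, at 45.61, was level with MF(ALPHA)2, at 45.68. In mutant 3 ASG7, at 40.3, was dimmer than STE3, at 76.5, and SAG1, at 54.5. Signals had 2% trimmed means of 249.7 to 250.1 on Ye6100, and of 500.3 and 250.1 for control 3 and mutant 3 on S98, which were brought to a common value. Mutant 2 stood apart in its 5′ to 3′ signal ratio for the actin gene ACT1, at 0.351 for mutant 2, beside 0.781 for control 1/2, 0.764 for mutant 1, 1.15 for control 3 and 1.17 for mutant 3. Mutant 1 stood apart in the hybridisation controls, labelled RNAs of bacterial and phage genes, whose geometric mean over 9 probe sets was 0.476 times that of control 1/2, beside 0.988 in mutant 2 and, on S98, 0.922 in mutant 3. The part of either difference in the results below was not tested. Values without mutant 2 and with signals scaled on these controls are given. Leaving out mutant 2 also removes the only SCY840 sample on Ye6100, so it cannot single out the 5′ to 3′ difference.

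No change of a subunit transcript passed the test. With the trimmed mean scaling, the ratios of most subunit genes differed in sign between the mutants. Over 3 mutants and 2 controls, 0 of the 8 tested subunit genes were called by limma at an adjusted p under 0.05, as were 0 of all 4287 genes (0%), and 0 of the 8 had an unadjusted p under 0.05, beside 281 of all genes (6.55%). Their median fitted log2 change was 0.14, close to the 0.096 of all tested genes, and with median centring of each sample it was -0.051, beside -0.092. WBP1 and STT3 were higher than the control in all 3 mutants (with median centring or quantile normalization WBP1 alone was). This makes 2 of 8, beside 26.2% of all tested genes, and 0 of 8 were lower in all 3, beside 14.6%. Neither count is read as a result about the subunits.

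**Figure D1:**
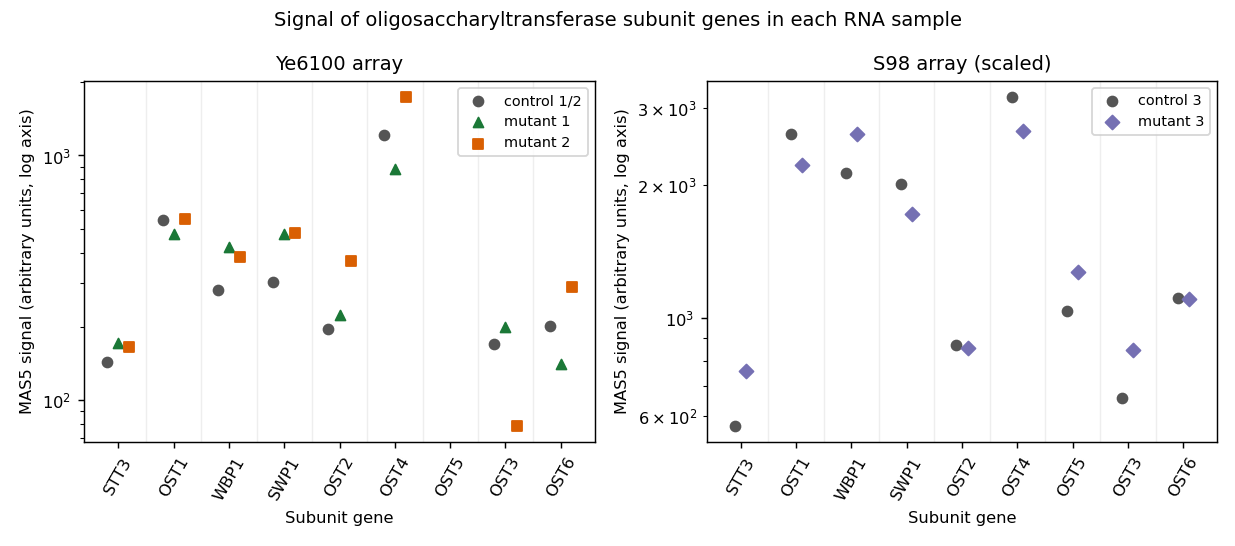
MAS5 signal (arbitrary units, log axis) of the 9 subunit genes in each RNA sample, with Ye6100 samples on the left and scaled S98 samples on the right. On Ye6100 both mutants lie above the control for STT3, WBP1, SWP1 and OST2, while OST3 in mutant 2, at 78.7, is the lowest point of that panel. Points of different genes come from different probe sets and cannot be ranked against each other.

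Among the subunits required for growth, STT3, which carries the active site, read 143.3 for control 1/2, 171.2 for mutant 1 and 165.3 for mutant 2 on Ye6100, and scaled signals of 570 in control 3 and 760 in mutant 3 on S98. Each mutant signal lay above the control of its format. The ratios to control were 1.19, 1.15 and 1.33 in mutants 1, 2 and 3, and the fitted log2 change was 0.31 ± 0.34 (SE, 3 mutants and 2 controls, limma adjusted p = 0.930, 95% interval -0.54 to 1.16). With median centring of each sample, the log2 ratio in mutant 1 became -0.047, and with quantile normalization -0.028. The direction of STT3 in mutant 1 thus depended on the scaling.

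WBP1 encodes a single-pass membrane subunit whose counterpart in mammals is OST48. Its signals were 282.8, 423.2 and 385.7 in control 1/2, mutant 1 and mutant 2, and the scaled S98 signals were 2133 in control 3 and 2610 in mutant 3. The log2 ratios of 0.58, 0.45 and 0.29 were above 0 in all 3 mutants, and they remained so with median centring (0.28, 0.51 and 0.013), with quantile normalization (0.33, 0.51 and 0.48) and with scaling on the hybridisation controls (1.65, 0.47 and 0.41). With the S98 signals left unscaled, the ratio of mutant 3 was -0.71, as it took on the difference in trimmed mean. The fitted log2 change was 0.42 ± 0.36 (SE, limma adjusted p = 0.901, 95% interval -0.47 to 1.31), the highest of the 8 subunit genes and not past the test.

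SWP1, for the subunit that resembles mammalian ribophorin II, split by array format. On Ye6100 the control read 305.1, mutant 1 475.9 and mutant 2 482.6, so both mutants were higher there, by 1.56-fold and 1.58-fold. The scaled S98 reading was 2015 for control 3 and 1725 for mutant 3, a ratio of 0.856, although mutants 2 and 3 are the same strain. The control strain and the array format both differ between these readings and cannot be told apart. The fitted log2 change was 0.28 ± 0.40 (SE, limma adjusted p = 0.948).

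OST1, for the counterpart of ribophorin I, gave signals of 544.5, 478.2 and 552.7 in control 1/2, mutant 1 and mutant 2, and scaled signals of 2613 and 2223 in control 3 and mutant 3. Mutants 1 and 3 lay under their controls, at ratios of 0.878 and 0.851, and mutant 2 was at 1.02. With scaling on the hybridisation controls the log2 ratio of mutant 1 was 0.88, above its control. The log2 change fitted over the mutants was -0.15 ± 0.36 (SE, limma adjusted p = 0.976).

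OST2, whose product is the yeast relative of the mammalian protein DAD1, differed mainly in mutant 2 with the trimmed mean scaling. It read 195.2 for control 1/2, 223.4 for mutant 1 and 371.5 for mutant 2, and the scaled S98 signals were 870 in control 3 and 856 in mutant 3. Mutant 2 thus stood 1.90-fold above its control, the highest ratio of any subunit gene in any mutant, while mutant 1 was at 1.14 and mutant 3 at 0.984. The log2 ratio of mutant 1 depended on the scaling. It was -0.11 with median centring, -0.068 with quantile normalization and 1.27 with scaling on the hybridisation controls, beside 0.95 in mutant 2 with the last. The fitted log2 change was 0.31 ± 0.42 (SE, limma adjusted p = 0.939).

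Of the small subunits, OST4, whose product helps to hold Ost3 or Ost6 in the complex, read 1217 for control 1/2, 877.7 for mutant 1 and 1726 for mutant 2. The mutants of the 2 strains thus fell on opposite sides of the shared control, at ratios of 0.721 and 1.42. With scaling on the hybridisation controls both lay above it, at log2 ratios of 0.60 and 0.52, so the split depended on the scaling. Scaled S98 readings were 3162 for control 3 and 2653 for mutant 3, a ratio of 0.839, so the 2 samples of SCY840 also differed in direction. The fitted log2 change was -0.099 ± 0.44 (SE, limma adjusted p = 0.991).

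OST5, for the other small subunit, which binds Ost1, was read on S98 alone, since no Ye6100 probe set carried its systematic name, YGL226C-A. The scaled reading was 1037 for control 3 and 1270 for mutant 3, a ratio of 1.23 with no replicate to test it, beside 1.22 for WBP1 on the same chips.

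OST3 and OST6 encode the alternative oxidoreductase subunits, and their ratios ran apart in mutants 1 and 2. OST3 gave signals of 170.4, 199.6 and 78.7 in control 1/2, mutant 1 and mutant 2, and scaled signals of 660 and 847 in control 3 and mutant 3. Mutant 2 was the sample that stood apart, at 0.462 times its control, while mutants 1 and 3 were at 1.17 and 1.28. The direction in mutant 1 depended on the scaling, with log2 ratios of -0.076 with median centring and -0.026 with quantile normalization. With the trimmed mean scaling, the mutant 2 ratio of OST3 was also the 1 ratio among the tested subunit genes that passed 2-fold in either direction. That size was reached by 29.3% of all tested genes in mutant 2, 19.4% in mutant 1 and 11.5% in mutant 3.

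OST6 read 201.6 for control 1/2, 140.4 for mutant 1 and 289.9 for mutant 2, the mutants on opposite sides of the control. With scaling on the hybridisation controls both mutants lay above the control, at log2 ratios of 0.55 and 0.54. On S98 its scaled signals were 1109 in control 3 and 1107 in mutant 3, a ratio of 0.998. The fitted log2 change was -0.099 ± 0.52 for OST3 and -0.00048 ± 0.45 for OST6 (SE, limma adjusted p = 0.991 and 0.999). The log2 ratio of OST3 minus that of OST6 came to 0.75 for mutant 1, -1.64 for mutant 2 and 0.36 for mutant 3, so OST3 stood higher relative to OST6 in mutants 1 and 3 and lower in mutant 2. The difference does not depend on a common scaling factor of a sample, and with 1 value per mutant it was not tested.

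**Figure D2:**
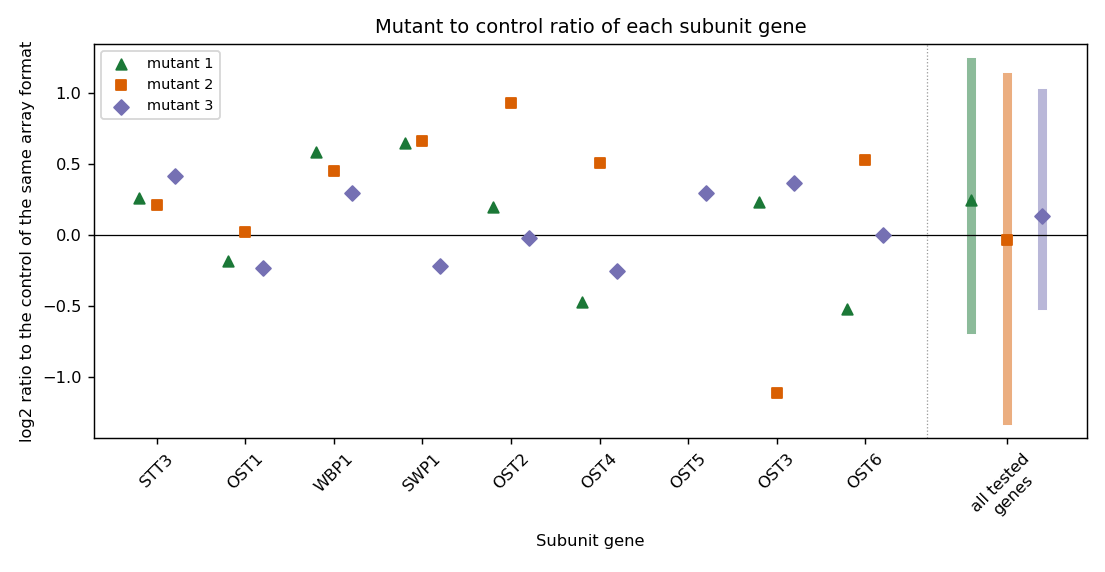
Log2 ratio of each mutant to the control of its own array format for the 9 subunit genes, with OST5 measured in mutant 3 alone. The bars at the right span the 10th to 90th percentile of the 4287 tested genes in each mutant, with the median marked, and every ratio of the 8 tested subunit genes lies within the bar of its mutant. OST3 in mutant 2 is the lowest point at -1.11.

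Within each mutant the 8 tested genes lay inside the range of most other genes. In mutant 1 their log2 ratios ran from -0.52 to 0.64 with 5 of 8 above 0, beside 63.9% of all tested genes. In mutant 2 they ran from -1.11 to 0.93 with 7 of 8 above 0, beside 48.5%, and in mutant 3 from -0.25 to 0.42 with 3 of 8 above 0, beside 59.2%. The span from the 10th to the 90th percentile of all tested genes was -0.66 to 1.22, -1.31 to 1.11 and -0.50 to 1.00 in the same order, and 8 of 8 subunit genes fell within it in each mutant. The medians of the 8 were 0.21, 0.48 and -0.013, beside 0.24, -0.037 and 0.13 for all tested genes. In mutant 2 the subunit genes thus had a higher median than other genes, and in mutant 3 a lower one.

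Between formats, mutants 1 and 3 shared the sign of the ratio for 6 of the 8 subunit genes, beside 72.1% of all tested genes, and this became 5 of 8 with median centring, with quantile normalization or with scaling on the hybridisation controls. For mutants 2 and 3, which are both SCY840, it was 2 of 8, beside 49.9% of all tested genes, and 4 of 8 with scaling on the hybridisation controls. Those 2 were STT3 and WBP1 with the trimmed mean scaling. The mutant 3 log2 ratios of OST6 and OST2 were close to 0, at -0.0025 and -0.023, and the counts are given as a description. Between the isolates on Ye6100, 5 of the 8 were higher in mutant 2 than in mutant 1 and 3 were lower, from -1.34 for OST3 to 1.05 for OST6 on the log2 scale, beside a span from -1.70 to 0.90 between the 10th and 90th percentile of all tested genes. OST6 and OST4 were 2.06-fold and 1.97-fold higher in mutant 2 than in mutant 1. With scaling on the hybridisation controls, their log2 ratios to control were 0.549 and 0.600 in mutant 1, and 0.542 and 0.523 in mutant 2. Mutant 1 was then the higher for both genes, so these differences and the count of 5 of the 8 depended on the scaling. With 1 sample per isolate on that format these differences have no replicate check.

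**Figure D3:**
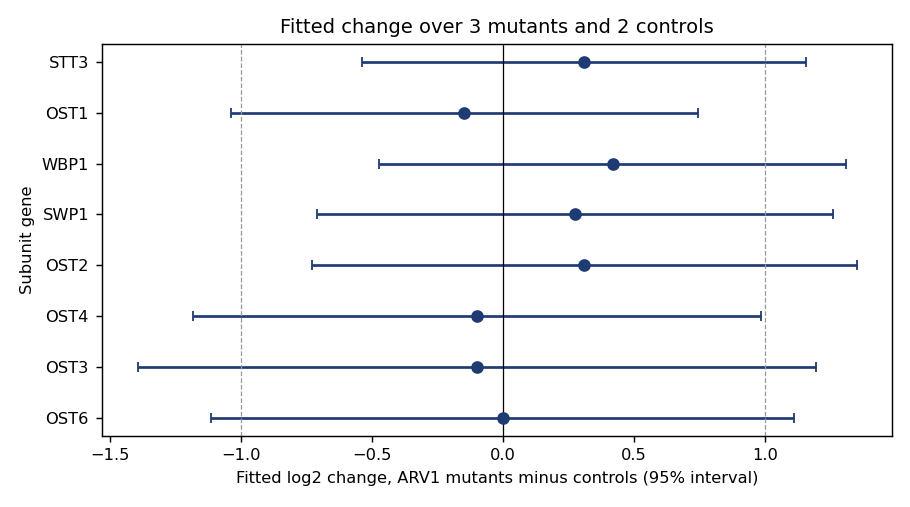
Fitted log2 change of the 8 tested subunit genes, ARV1 mutants minus controls, with the 95% interval from the limma fit with array format as a block (3 mutants and 2 controls), and dashed lines at a 2-fold change in either direction. Every interval spans 0, and each of the 8 reaches past at least one of the dashed lines.

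The fit of all 5 samples did not exclude a 2-fold change for any subunit gene, since 0 of the 8 intervals lay within 2-fold on both sides, as did 7.09% of the intervals of all tested genes. Leaving out mutant 2 narrowed them. Limma then called 669 genes (15.6%), and 1310 (30.6%) had an unadjusted p under 0.05. Of the 8 subunit genes 0 were called and 0 had an unadjusted p under 0.05. The SE of the subunit genes was then 0.27 to 0.30, in place of 0.34 to 0.52, and 7 of the 8 intervals lay within 2-fold on both sides. The exception was WBP1, at 0.44 ± 0.28 (SE, limma adjusted p = 0.316, 95% interval -0.16 to 1.04). OST3 without mutant 2 had a fitted log2 change of 0.29 ± 0.28 and OST4 of -0.36 ± 0.28. That fit has 1 residual degree of freedom and takes most of its variance estimate from the trend over all genes. The share of all tested genes with an interval within 2-fold was not computed for it. The 7 of 8 is therefore not read as a result about the subunits.

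Other steps of the same pathway were placed beside the complex. The counts in each list are to be read beside the shares over all tested genes. Of these, 26.2% were higher and 14.6% lower in all 3 mutants, and 6.55% had a limma unadjusted p under 0.05. The enzymes that build and carry the lipid-linked oligosaccharide had a median fitted log2 change of 0.51 over 19 tested genes of 21 listed, with 10 higher and 1 lower in all 3 mutants. Of these 0 were called over all genes, and 2 had an unadjusted p under 0.05. They were SEC59, the dolichol kinase gene, at 1.37 ± 0.32 (SE, limma adjusted p = 0.526), with log2 ratios of 1.47, 1.37 and 1.30 in mutants 1, 2 and 3, and NUS1, a subunit gene of the dolichol-making prenyltransferase, at 1.39 ± 0.46 (SE, adjusted p = 0.657). ALG14, whose product anchors the second sugar transferase at the membrane, had 0.92 ± 0.61.

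The translocon, the channel through which the substrate proteins enter the ER, had a median of 0.59 over 8 tested genes of 9 listed, with 4 higher and 1 lower in all 3 mutants. SEC72, for a subunit of the Sec63 complex, was its 1 gene with an unadjusted p under 0.05, at 1.21 ± 0.36 (SE, limma adjusted p = 0.641), and 0 were called. SEC61, for the channel itself, had 1.01 ± 0.54, and SEC66 had 1.14 ± 0.51. SSH1, for the alternative channel, had -0.77 ± 0.47.

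Downstream of the complex the medians of the fitted changes lay near 0, but medians in single mutants varied. For trimming and quality control they were -0.21, 0.0072 and 0.45 in mutants 1, 2 and 3. For Golgi mannosylation they were -0.064, -0.16 and 0.27. In mutant 3 the median was 0.40 for lipid-linked oligosaccharide assembly and 0.16 for the translocon. The genes for glycan trimming and glycoprotein quality control had a median of 0.063 over 8 tested genes, with 2 higher and 0 lower in all 3 mutants, and KRE5, GTB1 and PNG1 had 0.56 ± 0.32, -0.28 ± 0.64 and 0.27 ± 0.34. The Golgi mannosyltransferases of N-glycans had a median of 0.0085 over 11 tested genes, with 2 higher and 1 lower, and KTR6, HOC1 and MNN2 had 0.65 ± 0.38, 0.48 ± 0.37 and 0.44 ± 0.58. In both lists 0 genes were called and 0 had an unadjusted p under 0.05.

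**Figure D4:**
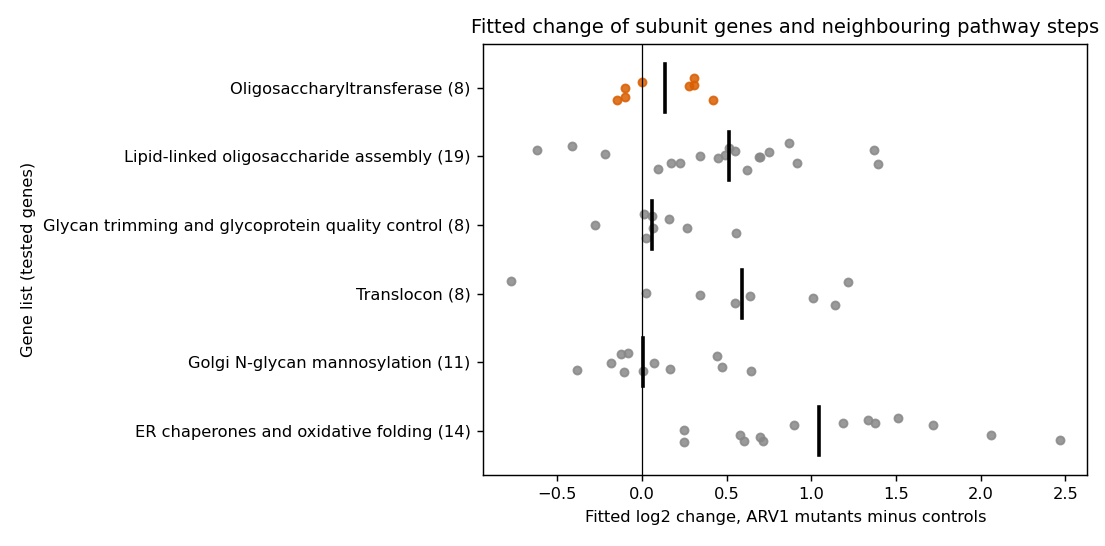
Fitted log2 change, ARV1 mutants minus controls, of each tested gene (points) in the oligosaccharyltransferase complex and in 5 other lists, with the list median as a black bar and the number of tested genes in brackets. The median is 0.14 for the complex, 0.51 for lipid-linked oligosaccharide assembly, 0.59 for the translocon and 1.05 for ER chaperones and oxidative folding.

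The ER chaperones and oxidative folding enzymes, many of them known targets of the unfolded protein response, had a median fitted log2 change of 1.05 over 14 tested genes of 15 listed. Of these 11 were higher in all 3 mutants and 0 lower, beside 26.2% and 14.6% of all tested genes. In the limma fit 7 had an unadjusted p under 0.05, beside 6.55% of all tested genes, and 0 were called. The 7 were SIL1, ERO1, JEM1, LHS1, MPD1, EUG1 and PDI1. KAR2, EPS1 and FPR2 were not higher in all 3 mutants. KAR2 had 0.25 ± 0.42, with a log2 ratio of -0.45 in mutant 3. EPS1 had 0.25 ± 0.42, with -0.32 in mutant 2, and FPR2 0.60 ± 0.54, with -0.35 in mutant 3. The medians of the whole list in mutants 1, 2 and 3 were 1.03, 1.26 and 0.82, beside the 0.21, 0.48 and -0.013 of the subunit genes. The difference between the lists was not tested.

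The tested genes whose 3 ratios lay nearest to the medians of the 8 subunit genes were RIB2, SEN54, LAC1, YIH1 and TGL1. These 5 were picked out of all tested genes for that distance, which was 0.058 to 0.096 on the log2 scale over the 3 mutants.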

How the data were processed

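Linear intensities were deposited, namely the MAS5 signals of the probe sets (the submitters' processing notes name the tool). Its version and scaling target, and any genome build, are not stated in the labels or headers. In the deposited Ye6100 file 1 column holds the 4 chips of a sample, which counted as 1 replicate. S98 signals of control 3 and mutant 3 were multiplied by 0.707 and 1.41 to equalise the 2% trimmed means. The 5th percentile of each table (2.4 on Ye6100 and 1.98 on S98) served as a floor before taking log2. A gene took its brightest probe set and was tested when that set's mean signal passed the 25th percentile on both formats (25.4 and 28.1). Names came from the Ye6100 systematic names (5840 of 6386 matched a locus tag of the R64 gene table) and from the S98 platform symbols (6504 probe sets with 1 symbol, 328 with several, 2503 with none).

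The test was limma 3.58.1 in R 4.3.3 (lmFit, and eBayes with a trend, two-sided), on genotype with array format as a block, with Benjamini-Hochberg adjustment over all 4287 genes and 2 residual degrees of freedom. The block is also the pairing by replicate number, because control 1/2 and control 3 carry the numbers of their mutants. The scripts were tested on simulated data. The number of arrays limits the precision. Alternatives covered scaling, floor, filter, probe set, block, trend and leaving out each sample. Scaling on the hybridisation controls was chosen after seeing the data.

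The members and lists were chosen with earlier results of these data known. The text names all 9 subunits and, per other list, genes with an unadjusted p under 0.05 or, where there are fewer than 3, the 3 largest fitted changes. SSH1, KAR2, EPS1 and FPR2 were named after their values were seen. Promoter and protein sequences were not used here. Plots used matplotlib 3.10.9 under Python 3.11.15.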

Additional observations from a re-analysis of the deposited data

How the results depend on the processing

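No subunit gene was called by limma under any of the 16 alternatives, and the lowest adjusted p was 0.316. OST1 kept its sign in 15 of 16, and STT3, WBP1 and OST2 in 14. The sign changed in 5 of 16 for OST6, 4 for OST4, and 3 for OST3 and for SWP1. The other floor, the 2 filter settings, the mean of probe sets and the fit without a trend left each fitted change as it was. Those settings could not change a sign, and leaving out control 3 or mutant 3 gave the same fitted changes. The tally is thus no measure of stability. With each sample left out in turn, the number of genes called ran from 0 to 669 and the number at an unadjusted p under 0.05 from 45 to 1310. Without control 1/2 only the mutant 3 ratio remains, so each gene then counts as higher or lower by that ratio alone. The subunit genes higher in all remaining ratios numbered 2 to 4, beside 1235 to 2539 of all 4287 tested genes. Those lower numbered 0 to 5, beside 904 to 1748, and the subunit median of the fitted log2 change was -0.013 to 0.24. There fewer ratios have to share a sign, and without control 3 or mutant 3, which leaves the Ye6100 contrast, 61 genes had an unadjusted p under 0.05. The fitted log2 changes then ran from -0.0234 to 0.562 for OST2, from -0.443 to 0.36 for OST3, from -0.362 to 0.126 for OST4, from -0.262 to 0.261 for OST6 and from -0.224 to 0.651 for SWP1, each on both sides of 0 (OST3 was at 0.294 without mutant 2), while STT3 and WBP1 stayed above 0 and OST1 below.

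Median centring and quantile normalization each left 1 subunit gene, WBP1, higher in all 3 mutants, and the latter called 1 gene of all. Of all tested genes, 751 and 938 were higher in all 3 mutants with these, beside 1122 in the main fit. That count was 243 with unscaled S98 signals and 1428 with scaling on the hybridisation controls. Unscaled S98 signals moved the median of all genes to -0.33, from 0.096, called 7 genes with 143 at an unadjusted p under 0.05, left 0 subunit genes higher in all 3, and gave a subunit median of -0.29, with OST2, STT3, WBP1 and SWP1 at -0.118, -0.118, -0.0097 and -0.15. Scaling on the hybridisation controls, added after seeing the data, moved the median of all genes to 0.46, called 2 with 123 at an unadjusted p under 0.05, and gave 4 subunit genes higher in all 3, a subunit median of 0.50, and OST1, OST3, OST4 and OST6 at 0.21, 0.26, 0.26 and 0.36. A pseudocount of 16 gave OST6 at 0.0032, and the filter at the 50th percentile 185 genes at an unadjusted p under 0.05, as fewer were tested. With no replicate block, which is the format block, 22 genes had an unadjusted p under 0.05, the subunit median was -0.20, and STT3, WBP1 and SWP1 were at -0.039, -0.046 and -0.094, since signals differ between formats. The cause of the other changes of sign was not tested.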
